A study of Mus musculus with 12 samples.

Results

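The response of scramble control cells to sustained hypertonicity was examined in mpkCCD cells, a mouse line derived from the cortical collecting duct of the kidney. The comparison set cells kept at 600 mosmol/kg (Scr_600) against cells kept at 300 mosmol/kg (Scr_300), and its members were the genes with at least 0.5 FPKM in 1 of these groups, 12929 of the 52015 genes with a usable value. FPKM is the number of sequenced fragments per kilobase of exon, scaled to the size of the library, so levels are comparable between genes of different length. Both groups carried a scramble gRNA without a target, had the labelled genotype WT and were cultured for 5 days, and the medium of Scr_600 had received 100 mM NaCl and 100 mM urea. Each group had 2 libraries of the 12 in the series, and the other 8 came from Nfat5-KO clones N1 and N3, with 4 libraries at each osmolality. Cells grew on plastic and not on a permeable support, and the study calls the libraries of a group biological replicates. Neither its methods nor the labels say whether these were separate cultures, so every p-value below measures only the spread between these libraries, which may be technical.

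Cells in hypertonic medium lose water and concentrate their salts, and renal medullary cells answer over hours to days by replacing salt with small organic solutes. Sorbitol is made from glucose, myo-inositol, betaine and taurine are taken up, and glycerophosphocholine is set free from membrane lipid. The transcription factor NFAT5 (TonEBP) binds tonicity enhancers (TonE) beside many of the genes concerned and also drives the chaperone HSP70, which counters the damage that urea and salt do to proteins. In the collecting duct the same cells reabsorb sodium through ENaC and the sodium pump, secrete potassium, and move water through aquaporins under vasopressin.

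The deposited values are group means, but a mean of 2 libraries of whole reads keeps the trace of both. With the exon length of each gene, the reads of both libraries could be separated for 11918 of the 12929 genes (92.2%). The libraries of Scr_300 had an implied depth of 35932000 and 31976000 reads and those of Scr_600 of 37138000 and 35130000 reads (rounded). Which of the labelled samples is which is not known, so they are called the deeper and the shallower library, and in each pair of values below the deeper one comes first. Pearson's r of log2(FPKM + 0.1) across genes was 0.972 between the Scr_300 libraries, 0.965 between the Scr_600 libraries and 0.932 to 0.949 between groups, where genes are not independent replicates. An adjusted p is that of limma, over all 11918 genes. A log2 change is the difference between the mean logs of the libraries, with its SE, and a log2 ratio is taken between the group means, both after 0.1 FPKM was added, which understates the change of low genes. Gene positions are those of GENCODE M21 on mm10, the build of the files.

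The labelled cell type was only partly borne out by its markers. Of 17 markers of principal cells, 7 were under 0.5 FPKM in both groups. Of the 10 compared 4 had a ratio above 1 and 6 below, with a median log2 ratio of -0.47. Cdh16, Tfcp2l1, Scnn1a and Aqp3, all described below, were above 0.5 FPKM in both groups. The keratins Krt8 (370.4 and 244 FPKM in the group means of Scr_300 and Scr_600) and Krt18 (738 and 535) were abundant, while Aqp2, the vasopressin-regulated water channel that defines principal cells, was at 0 reads in both Scr_300 libraries and at 0.209 and 0.281 FPKM in Scr_600. The vasopressin receptor Avpr2 (0.0102 and 0.00467 FPKM) and the ENaC subunit Scnn1b (0.0455 and 0.0159 FPKM) were near 0 in both groups. Most markers of other cell types were under 0.5 FPKM in both groups. Of 13 markers of intercalated cells 8 were so, and the list had a summed level of 11.7 FPKM in Scr_300 and 19.1 FPKM in Scr_600. Of the 5 compared, Aqp6 and Car2 (both described below) were at least 2-fold higher in Scr_600. The ratio was above 1 for 3 of the 5 and below 1 for 2, and the median log2 ratio was 0.03. Of 18 markers of fibroblasts, endothelium and leukocytes, 16 were under 0.5 FPKM in both groups and 8 at 0, with a summed level of 6.03 FPKM in Scr_300 and 5.35 FPKM in Scr_600. Of 16 markers of other nephron segments, 14 were under 0.5 FPKM in both groups, and the others, Aqp1 (described below) and Slc17a1, a phosphate carrier of the proximal tubule, were higher in Scr_600. Slc17a1 had 0 and 1 reads in Scr_300 and 23 and 109 in Scr_600. These values are of bulk RNA, in which fewer cells of a type and less RNA per cell cannot be told apart.

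In scramble cells 622 of the 12929 genes (4.81%) reached a 2-fold higher level in Scr_600 and 370 a 2-fold lower one (2.86%). The ratios were close to 1 for most genes, with 80.6% within 1.5-fold, a median log2 ratio of -0.04 and an SD of 0.63. The higher side reached further. At least 8-fold differences numbered 56 higher and 16 lower, and the extremes were log2 ratios of 5.87 and -4.35. Among the 11918 genes with values per library, limma called 113 higher (0.948%) and 76 lower (0.638%) at an adjusted p under 0.05, and no adjusted p was lower than 0.0124, with 2648 genes at an unadjusted p under 0.05. Both Scr_600 libraries lay above both Scr_300 libraries for 2819 genes (23.7%) and below them for 3802 (31.9%). Every count of changed genes in a list is to be set against these shares of all genes. Within the 458 genes at least 2-fold higher and separated by library, the libraries did not overlap for 418 and limma called 99, and within the 314 lower ones these numbers were 271 and 61. In the plot of level against ratio the called genes lie at low and high levels alike.

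**Figure D1:**
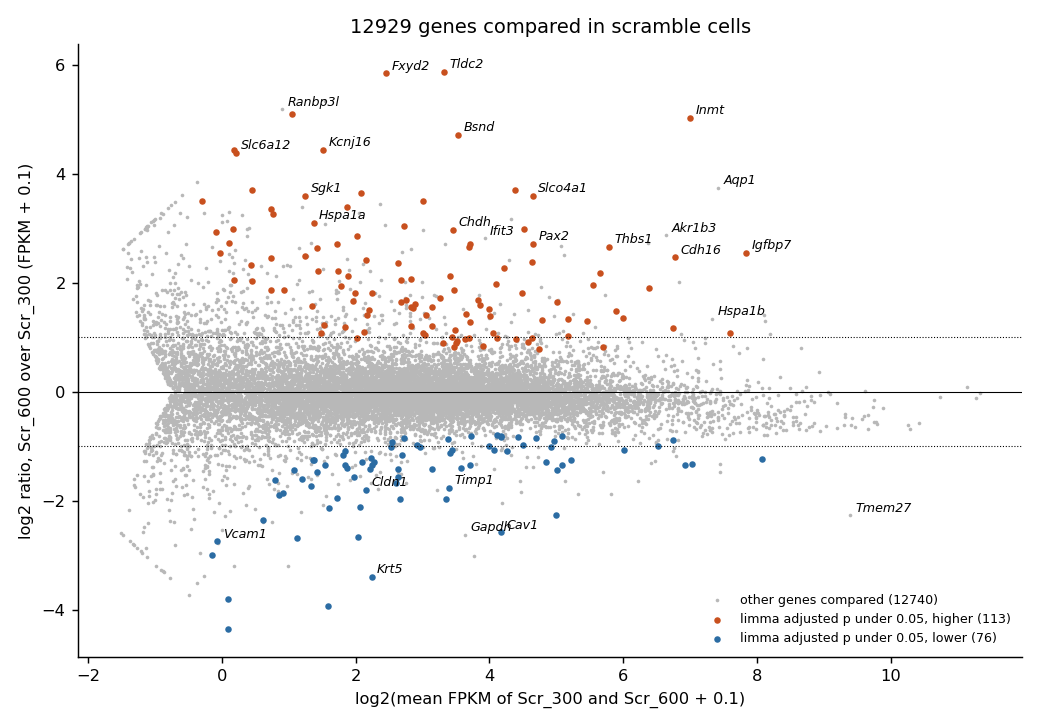
Each point is 1 of the 12929 genes, with the log2 of its mean FPKM of Scr_300 and Scr_600 + 0.1 on the x axis and its log2 ratio of Scr_600 to Scr_300 on the y axis. Dotted lines mark 2-fold differences, orange points are the 113 genes that limma called higher and blue points the 76 called lower, and the highest ratio, 5.87, belongs to Tldc2. Grey points far from 0 are genes with few reads, with libraries that differ, or without values per library, such as Akr1b3, Aqp1 and Tmem27.

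Genes of organic osmolyte handling were mostly higher. The list also holds the transcription factor Nfat5 and the Ran-binding protein Ranbp3l, a known tonicity-induced gene. Of 14 genes listed, 13 were compared, of which 6 (Ranbp3l among them) had a ratio of 2-fold or more upward and 1 downward. Of the 11 with values per library limma called 3 higher and 0 lower. The median log2 ratio of the list was 0.88, against -0.04 over all genes. The first route is sorbitol. Akr1b3, aldose reductase, which makes sorbitol from glucose, was at 25.3 and 22.4 FPKM in Scr_300 and at a mean of 175 FPKM in Scr_600, a log2 ratio of 2.87 with no test, since its Scr_600 reads could not be separated. Sord, sorbitol dehydrogenase, which consumes sorbitol, was at 1.1 and 1.69 FPKM in Scr_300 and 0.389 and 0.581 FPKM in Scr_600. Both Scr_600 libraries lay below both Scr_300 libraries for Sord, but the difference did not pass the test (adjusted p = 0.128).

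The second route is betaine, which is either made from choline or taken up. Chdh, choline dehydrogenase, on chromosome 14 from 30009023 to 30040527, was at 2.8 and 1.95 FPKM in Scr_300 and 17 and 21.6 FPKM in Scr_600. The groups were far apart and Chdh rose by a log2 change of 2.98 ± 0.22 (SE, adjusted p = 0.0142). Aldh7a1, which oxidises betaine aldehyde to betaine, was at 4.54 and 3 FPKM in Scr_300 and 2.92 and 3.58 FPKM in Scr_600, so its libraries overlapped between groups. Slc6a12, the betaine transporter BGT1, on chromosome 6 from 121343076 to 121365775, had 0 and 1 reads in Scr_300 and 136 and 321 reads in Scr_600, that is 0 and 0.0102 FPKM and 1.2 and 2.99 FPKM. It rose from a single read (adjusted p = 0.0416), and the ratio of its reads, scaled to depth, was 429, with an exact 95% interval of 76.7 to 17000 that covers counting error only.

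The promoter of Slc6a12 is shown because this gene went from almost no reads to a clear level. It is the 250 bases before the RefSeq start site (GRCm38.p6, chr6:121342324-121342573, plus strand), and capitals mark the core of the tonicity enhancer, TGGAAA.
Slc6a12: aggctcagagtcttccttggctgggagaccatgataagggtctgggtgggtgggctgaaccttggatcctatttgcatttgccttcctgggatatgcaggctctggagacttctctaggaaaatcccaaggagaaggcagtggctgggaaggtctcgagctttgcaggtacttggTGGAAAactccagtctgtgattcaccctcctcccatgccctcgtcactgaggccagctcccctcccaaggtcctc
These letters were found, on either strand, in 18.6% of 32851 RefSeq promoters of this length and in 17.0% of the 8811 promoters of genes compared. Promoters were at hand for 273 of the genes at least 2-fold higher, of which 26.7% held the core, and for 161 of those at least 2-fold lower, of which 18.6% did. The full TonE consensus was found in 4.31% of all promoters, in 6.96% of the higher and in 3.11% of the lower genes. Of the 10 genes of the osmolyte list with a promoter sequence 3 (30.0%) held the core. They were Slc6a12, Pnpla6 and Ranbp3l, all among the 5 at least 2-fold higher. Ranbp3l is in the list as a tonicity-induced gene and does not itself handle an osmolyte. Slc6a12 and Pnpla6 held the full consensus. The core was also found in 38.5% of 26 interferon response promoters, and in 1 of 11 HSP70 and HSP110 promoters, but in 0 of the 3 of that family at least 2-fold higher. A match describes these letters and not a bound site.

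Most genes for the other osmolytes differed by less. Pnpla6, a phospholipase that sets glycerophosphocholine free, was at 3.94 and 3.12 FPKM in Scr_300 and 11.6 and 9.5 FPKM in Scr_600, and it rose (log2 change 1.55 ± 0.18 SE, adjusted p = 0.0306). Gpcpd1, which degrades glycerophosphocholine, was at 2.53 and 2.33 FPKM in Scr_300 and 1.47 and 1.55 FPKM in Scr_600, with both Scr_600 libraries below both Scr_300 libraries and an adjusted p of 0.14. Slc5a3, the sodium and myo-inositol cotransporter, was at 2.56 and 1.69 FPKM in Scr_300 and 5.84 and 3.55 FPKM in Scr_600. It did not pass the test (adjusted p = 0.142), and its exons overlap Mrps6 on the same strand, so that reads of the genes may be mixed. Slc6a6, the taurine transporter, was at 16.4 and 20.2 FPKM in Scr_300 and 36.1 and 31.4 FPKM in Scr_600, and its groups did not overlap but just missed the threshold (adjusted p = 0.0658). Nfat5 itself was at 5.61 and 5.6 FPKM in Scr_300 and 8.64 and 7.22 FPKM in Scr_600, again without overlap and with an adjusted p of 0.149. Ranbp3l, a Ran-binding protein that is known as a tonicity-induced gene of the inner medulla, had 0 reads in both Scr_300 libraries and a mean of 3.53 FPKM in Scr_600. If 3 reads over both libraries are taken as an approximate upper bound for a count of 0, the bound is 0.00644 FPKM. The Scr_600 mean of Ranbp3l was 548-fold above this 3-read bound, and the error of that mean is not included. In pairs of single libraries, 1 from each group, the median change of the 11 separated genes of the osmolyte list ran from 0.36 to 0.83.

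Among chaperones 1 inducible HSP70 gene rose. Of 15 HSP70 and HSP110 genes 13 were compared, 3 were at least 2-fold higher and 0 lower, limma called 1 higher, and the median log2 ratio was 0.24, or -0.01 over the 8 separated genes without the deeper Scr_600 library. Hspa1a, an inducible HSP70, on chromosome 17 from 34969190 to 34972156, was at 0.478 and 0.401 FPKM in Scr_300 and 4.33 and 4.75 FPKM in Scr_600. It rose by a log2 change of 3.11 ± 0.21 (SE, adjusted p = 0.0128). Hspa1b, its neighbour with a near-identical protein, was at far higher levels, 124 and 58.6 FPKM in Scr_300 and 253 and 209 FPKM in Scr_600. The groups did not overlap, yet the Scr_300 libraries differed from each other and the adjusted p was 0.12. Reads of the pair can be shared, so the split between them is uncertain, and even their promoters differ at only 3 of 250 positions. Hspa4l, an HSP110 relative named for its osmotic induction, had group means of 12.4 and 35 FPKM in Scr_300 and Scr_600, and Hsph1, HSP110, of 81.7 and 158 FPKM, neither with values per library. The constitutive HSC70, Hspa8, had 470.0 and 423 FPKM, and the endoplasmic reticulum chaperone Hspa5 had 145 and 118 FPKM.

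The small heat shock proteins had values in both directions. Cryab, alpha B-crystallin, was at 173 and 114 FPKM in Scr_300 and 236 and 275 FPKM in Scr_600, with Scr_600 above Scr_300 in every library and an adjusted p of 0.137. Hspb1, HSP25, was at 328 and 170.0 FPKM in Scr_300 and 87 and 112 FPKM in Scr_600, with Scr_600 below Scr_300 in every library and an adjusted p of 0.129. Cryab overlaps Hspb2 on the opposite strand, so without strand information their reads may be mixed. None of the 6 small heat shock protein genes compared passed the test in either direction, and of 30 genes of J-domain proteins, HSP90 and chaperonins 24 had a ratio below 1, with a median log2 ratio of -0.23 and 0 called.

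Transport genes of the tubule held some of the largest changes. Bsnd encodes barttin, the subunit that ClC-K chloride channels need, and lies on chromosome 4 from 106483456 to 106492283. It was at 0.273 and 1.21 FPKM in Scr_300 and 18.8 and 25.4 FPKM in Scr_600, and although the Scr_300 libraries differed it rose (log2 change 4.97 ± 0.58 SE, adjusted p = 0.0311). Kcnj16 encodes Kir5.1, a potassium channel subunit of the basolateral membrane, on chromosome 11. It went from 0.0495 and 0.254 to 5.08 and 5.63 FPKM, a rise of 4.57 ± 0.45 (log2, SE, adjusted p = 0.0213) from 7 and 32 reads to 743 and 779. Kcnj1, the potassium channel ROMK, had 0 reads in both Scr_300 libraries and 0.767 and 0.683 FPKM in Scr_600, with an adjusted p of 0.08. Its Scr_600 mean was 54.7-fold above the approximate 3-read bound of 0.0133 FPKM over both Scr_300 libraries. Of 12 potassium channel genes 5 were compared, 2 were at least 2-fold higher and 1 was called, against 4.81% and 0.948% of all genes.

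A regulatory subunit of the sodium pump rose from a level near 0. Fxyd2, the gamma subunit, on chromosome 9 from 45399669 to 45410278, was at 0.0973 and 0.0781 FPKM in Scr_300 and 6.02 and 15.3 FPKM in Scr_600. Its Scr_600 libraries differed by more than 2-fold but both lay far above Scr_300, and it rose by 5.70 ± 0.46 (log2, SE, adjusted p = 0.0142). The beta subunit Atp1b1 was at 80.9 and 120.4 FPKM in Scr_300 and 182 and 215 FPKM in Scr_600 (adjusted p = 0.104), without overlap between the groups. Sgk1, the kinase that raises ENaC activity in response to aldosterone and to cell volume, was at 0.346 and 0.179 FPKM in Scr_300 and 4.03 and 4.53 FPKM in Scr_600. It rose by 3.63 ± 0.31 (log2, SE, adjusted p = 0.0142). The ENaC subunit Scnn1a was at 1.75 and 4.16 FPKM in Scr_300 and 0.769 and 1.86 FPKM in Scr_600, with overlapping libraries.

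Among water channels, Aqp1, the constitutive channel of the proximal tubule and thin limb, was the most abundant. It lies on chromosome 6 from 55336432 to 55348555 and was at 33.9 and 13.4 FPKM in Scr_300 and at a mean of 318 FPKM in Scr_600, a log2 ratio of 3.75 without a test. Aqp6, a channel of intercalated cells, was at 0.149 and 0.129 FPKM in Scr_300 and 0.933 and 1.22 FPKM in Scr_600 (adjusted p = 0.0659). Aqp3, the basolateral channel of principal cells, was at 1.95 and 3.86 FPKM in Scr_300 and 1.71 and 2.43 FPKM in Scr_600, so its libraries overlapped. Downstream of vasopressin, Prkar2b, a regulatory subunit of protein kinase A, was at 29.1 and 33.3 FPKM in Scr_300 and 83.4 and 90.5 FPKM in Scr_600 and rose (log2 change 1.48 ± 0.13 SE, adjusted p = 0.0166). Of 26 genes of aquaporins and the vasopressin pathway 15 were compared, 3 were at least 2-fold higher, 0 lower, and 1 was called. Over all genes 4.81% were at least 2-fold higher, 2.86% lower and 0.948% called higher.

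Other carriers joined them. Slco4a1, an organic anion transporter that carries thyroid hormone, was at 3.71 and 3.73 FPKM in Scr_300 and 40.5 and 51.9 FPKM in Scr_600. The Scr_300 libraries were almost equal, and it rose by 3.59 ± 0.15 (log2, SE, adjusted p = 0.0124), among the lowest adjusted p of all genes. Limma called 0.948% of all genes higher and 0.638% lower, and of 17 amino acid transporters compared it called 2 higher and 0 lower. These were Slc7a6, an exchanger of cationic and neutral amino acids, at 20.3 and 20.3 FPKM in Scr_300 and 52.3 and 50.7 FPKM in Scr_600 (adjusted p = 0.0142), and Slc6a19, a neutral amino acid transporter, at 0.372 and 0.45 FPKM in Scr_300 and 2.9 and 2.54 FPKM in Scr_600 (adjusted p = 0.0218). Car2, the cytosolic carbonic anhydrase of intercalated cells, was at 1.93 and 2.85 FPKM in Scr_300 and 9.65 and 10.9 FPKM in Scr_600 and rose (adjusted p = 0.0221). Slc16a1, the lactate carrier MCT1, was at 48.9 and 56.1 FPKM in Scr_300 and 21 and 23 FPKM in Scr_600 and fell (log2 change -1.25, adjusted p = 0.0233). Of 18 genes of volume-regulated anion channels, WNK kinases and cation-chloride cotransporters, 0 were 2-fold changed in either direction. At shares of 4.81% higher and 2.86% lower over all genes, a count of 0 in so short a list says little.

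**Figure D2:**
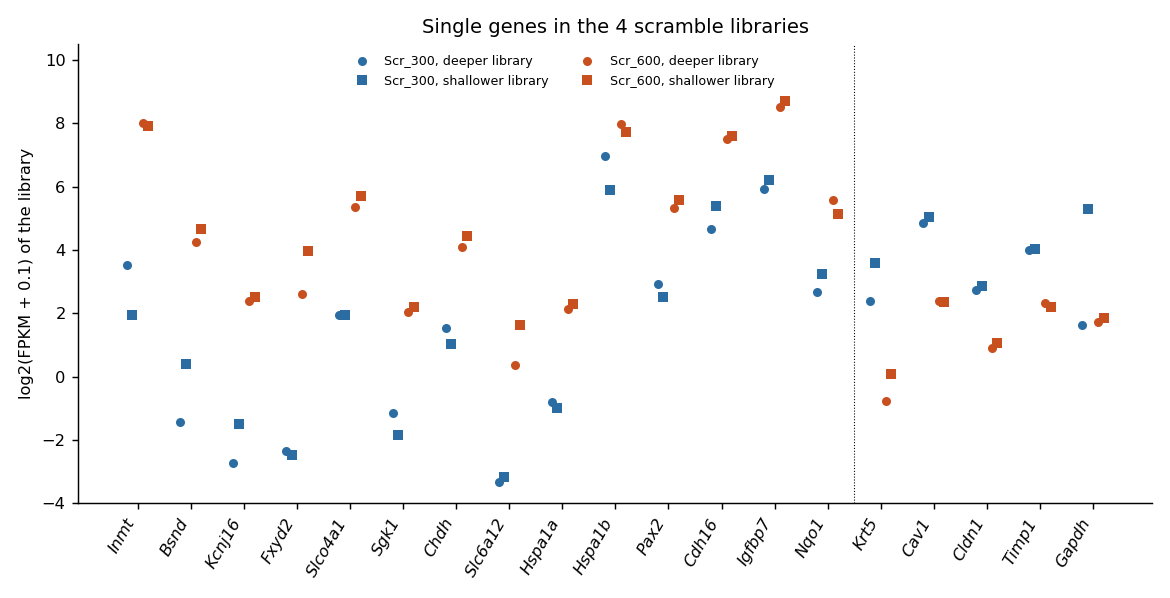
Log2(FPKM + 0.1) of 19 genes in each of the 4 scramble libraries, blue for Scr_300 and orange for Scr_600, with circles for the deeper and squares for the shallower library of each group. Left of the dotted line are genes with a higher and right of it genes with a lower group mean in Scr_600, and for Gapdh 3 libraries lie together between 2.97 and 3.53 FPKM while the shallower Scr_300 library stands alone at 39.4 FPKM.

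The named genes came from a rule on size, level and list membership. Among the 7481 genes that reached 5 FPKM in either group and 0.1 FPKM in both, the 25 with the highest ratio included Bsnd, Kcnj16, Aqp1, Slco4a1, Akr1b3 and Chdh above. The highest was Tldc2, a TLDc-domain protein, at 0.13 and 0.342 FPKM in Scr_300 and 9.2 and 29.9 FPKM in Scr_600. Its levels in Scr_600 differed between libraries but were far above those of Scr_300, where it had 3 and 7 reads, and it rose by 5.71 ± 0.61 (log2, SE, adjusted p = 0.0236). Inmt, an N-methyltransferase of indoleamines, on chromosome 6 from 55170626 to 55175043, was at 11.4 and 3.71 FPKM in Scr_300 and 259 and 238 FPKM in Scr_600. It rose by 5.23 ± 0.49 (log2, SE, adjusted p = 0.0188), and the ratio of the group means was 33. Rnf183, a membrane-bound ubiquitin ligase of the kidney, was at 0.475 and 0.575 FPKM in Scr_300 and 6.93 and 8.44 FPKM in Scr_600, with adjusted p = 0.0124. Afap1l1, an actin-associated protein, was at 3.9 and 1.85 FPKM in Scr_300 and 36.5 and 40.5 FPKM in Scr_600, with adjusted p = 0.0157. Plpp3, a lipid phosphate phosphatase, rose from 1 and 0.762 to 6.18 and 7.86 FPKM (adjusted p = 0.0142). Lta, lymphotoxin alpha, was at 2.52 and 0.905 FPKM in Scr_300 and 19.1 and 9.22 FPKM in Scr_600 and missed the threshold (adjusted p = 0.0659).

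Of 15 kidney epithelial transcription factors compared limma called 2 higher and 0 lower. Pax2, a transcription factor of kidney development that persists in the collecting duct, on chromosome 19 from 44756045 to 44837871, was at 7.53 and 5.65 FPKM in Scr_300 and 40.3 and 47.1 FPKM in Scr_600. It rose by 2.72 ± 0.18 (log2, SE, adjusted p = 0.0128). Its relative Pax8 was at 19.2 and 19.8 FPKM in Scr_300 and 33.8 and 33.7 FPKM in Scr_600 and rose less (log2 change 0.79, adjusted p = 0.0431). Of the 15 factors 14 had a ratio above 1, with a median log2 ratio of 0.33. For 11 of these both Scr_600 libraries lay above both Scr_300 libraries, against 23.7% of all genes. The one below 1 was Tfcp2l1, a factor that shapes principal and intercalated cells, at 38.9 and 42.3 FPKM in Scr_300 and 24.7 and 25.6 FPKM in Scr_600 (adjusted p = 0.0636). Foxq1, a forkhead factor outside that list, was at 0.764 and 1.89 FPKM in Scr_300 and 10.6 and 12.8 FPKM in Scr_600 and rose (adjusted p = 0.0362). Cdh16, the kidney-specific cadherin, was at 25.3 and 41.7 FPKM in Scr_300 and 179.9 and 192 FPKM in Scr_600, a rise of 2.51 ± 0.25 (log2, SE, adjusted p = 0.0213).

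Further genes of the named set had other roles. Igfbp7, an insulin-like growth factor binding protein, was at 59.99 and 73.1 FPKM in Scr_300 and 363 and 419 FPKM in Scr_600, the most abundant of the genes named here that rose (log2 change 2.56 ± 0.17 SE, adjusted p = 0.0128). It overlaps Polr2b on the opposite strand, which had group means of 39.3 and 43.6 FPKM. Thbs1, the matrix protein thrombospondin-1, was at 12.3 and 17.6 FPKM in Scr_300 and 105 and 85.4 FPKM in Scr_600 (adjusted p = 0.0142), and Plat, tissue plasminogen activator, at 0.383 and 0.687 FPKM in Scr_300 and 6.86 and 6.29 FPKM in Scr_600 (adjusted p = 0.0142). Both rose. Lifr, the receptor of leukemia inhibitory factor, was at 0.139 and 0.029 FPKM in Scr_300 and 1.16 and 1.04 FPKM in Scr_600 (adjusted p = 0.0704). Ccl2, a monocyte chemokine, rose from 0.758 and 0.522 to 5.49 and 3.55 FPKM (adjusted p = 0.0295). Prss35, a serine protease-like protein, went from 1 and 3 reads to 2.04 and 5.78 FPKM (adjusted p = 0.0297). Nqo1, the quinone reductase induced by NRF2, was at 6.33 and 9.36 FPKM in Scr_300 and 48 and 35.1 FPKM in Scr_600 and rose (adjusted p = 0.0218), and it was the 1 gene called higher of 31 glutathione, thioredoxin and NRF2 genes compared, none of which was called lower.

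Of the 25 genes named for a low ratio the lowest was 2610528A11Rik, a protein-coding gene on chromosome 14 from 37102140 to 37114022, at 5.24 and 5.85 FPKM in Scr_300 and 0.195 and 0.344 FPKM in Scr_600. It fell by 3.96 ± 0.28 (log2, SE, adjusted p = 0.0136), from 156 and 155 reads to 6 and 10.

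Among keratins several members fell. Of 13 genes of keratins and vimentin 9 were compared, 1 was past 2-fold upward and 5 downward, and limma called 0 higher and 4 lower of the 6 with values per library. The median log2 ratio was -1.01. Krt5, a keratin of basal epithelial cells, on chromosome 15 from 101707070 to 101712898, was at 5.16 and 11.9 FPKM in Scr_300 and 0.49 and 0.946 FPKM in Scr_600. It fell by 3.34 ± 0.47 (log2, SE, adjusted p = 0.0431). Krt4, a keratin of stratified epithelium, was at 2.53 and 2.38 FPKM in Scr_300 and 0.492 and 0.307 FPKM in Scr_600 (adjusted p = 0.0348), and Krt20, a keratin of urothelium and injured tubules, at 18.4 and 19 FPKM in Scr_300 and 6.64 and 7.99 FPKM in Scr_600 (adjusted p = 0.0221). Both fell, as did Krt80, at 7.07 and 8.15 FPKM in Scr_300 and 3.87 and 3.61 FPKM in Scr_600 (adjusted p = 0.0458). Krt19, more abundant than these, was at 156 and 151 FPKM in Scr_300 and 55.6 and 80.2 FPKM in Scr_600 and missed the threshold (adjusted p = 0.0617). The exception was Krt23, at 0.107 and 0.32 FPKM in Scr_300 and 1.05 and 2.04 FPKM in Scr_600 (adjusted p = 0.0973).

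Of the genes of caveolae and YAP/SRF targets 3 fell, and junction genes were called in both directions. Cav1, which builds caveolae, on chromosome 6 from 17306335 to 17341452, was at 28.8 and 32.8 FPKM in Scr_300 and 5.15 and 5.02 FPKM in Scr_600. It fell by 2.57 ± 0.13 (log2, SE), with an adjusted p of 0.0124 that no gene went below. Its partner Cav2 was at 36.4 and 44.6 FPKM in Scr_300 and 14.4 and 18.6 FPKM in Scr_600 and fell less (adjusted p = 0.0431), and Tpm2, beta-tropomyosin, fell from 3.62 and 3.46 to 1.38 and 1.47 FPKM (adjusted p = 0.042). These were the 3 genes called of 15 with values per library in the list of caveolae and YAP/SRF targets, whose median log2 ratio was -0.17. Gja1, connexin 43, was at 7.64 and 5.8 FPKM in Scr_300 and 1.77 and 1.19 FPKM in Scr_600 (adjusted p = 0.0311), and Pkp1, a desmosome plaque protein, at 2.83 and 2.66 FPKM in Scr_300 and 0.777 and 0.55 FPKM in Scr_600 (adjusted p = 0.0391). Both fell. Of the tight junction genes, Cldn1 fell (adjusted p = 0.0142), at 6.49 and 7.08 FPKM in Scr_300 and 1.78 and 1.98 FPKM in Scr_600, while Cldn4, a claudin that lets chloride through in the collecting duct, rose (adjusted p = 0.0365), at 66.8 and 65.3 FPKM in Scr_300 and 162 and 135 FPKM in Scr_600. The median log2 ratio of the 17 tight junction genes compared was -0.06, which turned positive (0.07) when the columns were scaled to the same FPKM sum, and also without the shallower Scr_300 library (0.07) or the deeper Scr_600 library (0.04).

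Of the markers of injured tubules that passed the test, all fell. Of 14 listed genes 12 were compared, 6 were at least 2-fold lower and 1 higher, and limma called 3 lower and 0 higher of 11, with a median log2 ratio of -0.73. Timp1, an inhibitor of matrix proteases, was at 16 and 16.3 FPKM in Scr_300 and 4.88 and 4.49 FPKM in Scr_600 and fell by 1.76 ± 0.12 (log2, SE, adjusted p = 0.0128). Vcam1, an adhesion molecule of maladaptive tubule cells, was at 1.72 and 1.4 FPKM in Scr_300 and 0.0941 and 0.202 FPKM in Scr_600 and fell (adjusted p = 0.0468). Krt20 above was the third. Lcn2, the injury marker NGAL, had higher values in Scr_600, at 107 and 103 FPKM in Scr_300 and 187 and 203 FPKM in Scr_600, without overlap and with an adjusted p of 0.0522, and Spp1, osteopontin, was at 18.6 and 22.7 FPKM in Scr_300 and 85.6 and 25 FPKM in Scr_600, where only 1 Scr_600 library stood far above Scr_300.

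Other genes with the lowest ratios had varied roles. Gabrp, the pi subunit of GABA type A receptors, was at 63.3 and 42.3 FPKM in Scr_300 and 9.45 and 12.6 FPKM in Scr_600 and fell (log2 change -2.24, adjusted p = 0.0245). Dab2, an endocytic adaptor, at 5.82 and 4.42 FPKM in Scr_300 and 1.36 and 1.14 FPKM in Scr_600 (adjusted p = 0.0255), and Podxl, podocalyxin, at 8.62 and 9.68 FPKM in Scr_300 and 2.9 and 2.71 FPKM in Scr_600 (adjusted p = 0.0142), fell as well. Tmem27, collectrin, a partner of amino acid transporters in the proximal tubule, was the most abundant of the 25 genes with the lowest ratios, with group means of 1114 and 232 FPKM and no values per library. Among lysosomal genes Scarb2, a lysosomal membrane protein, at 6.75 and 6.76 FPKM in Scr_300 and 2.43 and 2.99 FPKM in Scr_600 (adjusted p = 0.0348), and Ctsl, cathepsin L, at 41.5 and 39.1 FPKM in Scr_300 and 17.5 and 22.2 FPKM in Scr_600 (adjusted p = 0.049), were the 2 called of 34. Over all genes 0.638% were called lower.

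Gapdh, often used as a constant reference, was not constant between libraries. It had 441 and 5209 reads in Scr_300 and 491 and 512 reads in Scr_600, that is 2.97 and 39.4 FPKM in Scr_300 and 3.2 and 3.53 FPKM in Scr_600. The shallower Scr_300 library alone carried the group mean of 21.2 FPKM and the log2 ratio of -2.62, the adjusted p was 0.429, and without that library the ratio was 0.17. In Nfat5-KO cells, whose 4 libraries a group cannot be separated, the group means were 25.5 FPKM at 300 and 2.46 FPKM at 600 mosmol/kg, a log2 ratio of -3.32. Gapdh has many processed copies in the genome with which reads can be shared, so its level is uncertain. The cause of the difference was not tested.

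Genes of the cytosolic ribosome mostly had ratios below 1. Of 48 large-subunit protein genes 45 had a ratio below 1 (median log2 ratio -0.57) and of 33 small-subunit genes 32 (median -0.57). Where reads were separated, both Scr_600 libraries lay below both Scr_300 libraries for 27 of 31 and 15 of 17 genes, against 31.9% of all genes, yet only Rps27a, a ribosomal protein made as a fusion with ubiquitin, was called. Rps27a was at 168 and 203 FPKM in Scr_300 and 72.5 and 75.8 FPKM in Scr_600 and fell by 1.32 (log2, adjusted p = 0.0302). Translation factors had a median of -0.24, with 37 of 39 below 1 and 1 called, Eif2s3x, a subunit of the initiation factor that brings the first tRNA (33.8 and 32.7 FPKM in Scr_300 and 18.7 and 18.4 FPKM in Scr_600, adjusted p = 0.04). The reads of ribosomal protein genes can be shared with processed pseudogenes, of which 869 were compared here.

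Families of energy supply and growth also had medians below that of all genes. Oxidative phosphorylation complexes II to V had a median log2 ratio of -0.24, with 36 of 38 genes below 1. Both Scr_600 libraries lay below both Scr_300 libraries for 25 of 35, against 31.9% of all genes. In pairs of single libraries the median of complexes II to V was -0.33 and -0.43 for the deeper and -0.09 and -0.16 for the shallower Scr_600 library. Complex I had -0.15, which rested on the deeper Scr_600 library, with -0.29 and -0.36 in its pairs against 0.03 and -0.07 in those of the shallower one. Mitosis genes had a median of -0.29, with 31 of 34 below 1 and the libraries apart for 23 of 33, against 31.9% of all genes. DNA replication genes had -0.19, with 33 of 39 below 1. Proteasome subunits had -0.21, with 28 of 31 below 1. None of these families had a gene called by limma in either direction. Cholesterol synthesis genes stood on the other side, with a median of 0.17 and 19 of 24 above 1, but without the deeper Scr_600 library the median was -0.02. Both Scr_600 libraries lay above both Scr_300 libraries for 7 of 23, not far from the 23.7% of all genes. Scaling the columns to the same FPKM sum added 0.13 to a log2 ratio and changed the sign of the medians of 8 lists, the tight junction list among them and none of the others whose median is given here.

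**Figure D3:**
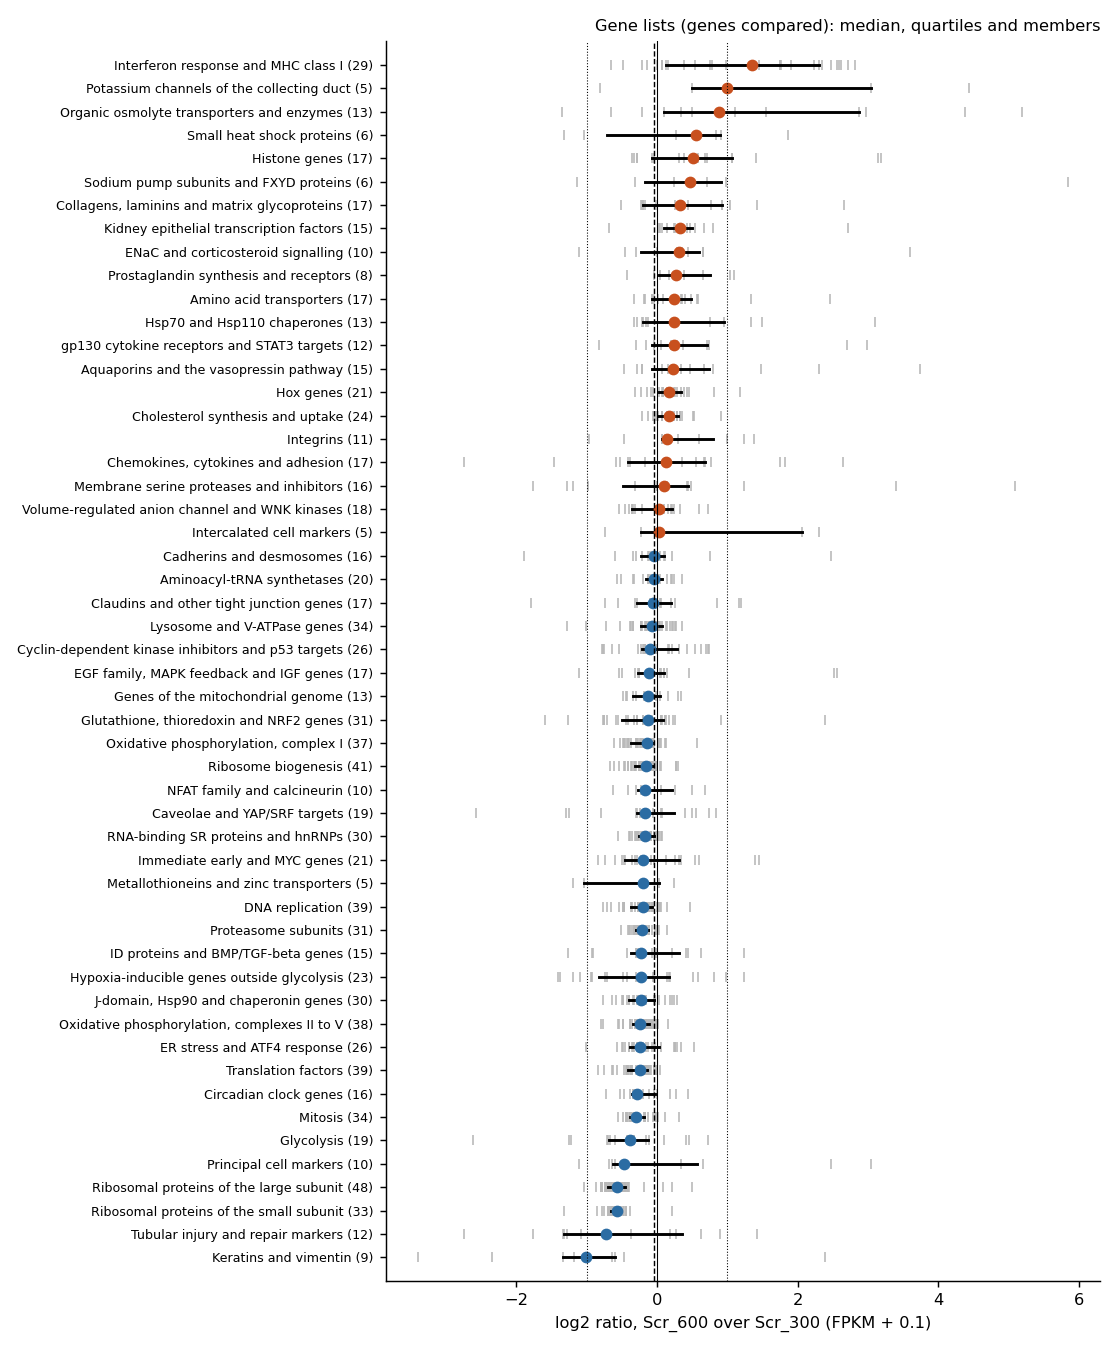
Log2 ratio of Scr_600 to Scr_300 for gene lists with at least 5 members compared, whose number stands in brackets. Grey ticks are genes, dots the medians (orange above 0, blue below), black bars the quartiles, the dashed line is the median of all genes (-0.04) and the dotted lines are 2-fold differences. Medians run from 1.35 for interferon response genes to -1.01 for keratins and vimentin, and the ribosomal lists are narrow.

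Among the lists with at least 5 genes compared the highest median, 1.35, belonged to genes of the interferon response and MHC class I, which cells switch on against viruses through interferon-stimulated response elements (ISRE). Of 33 genes 29 were compared, 15 were at least 2-fold higher and 0 lower. For 14 of the 27 with values per library both Scr_600 libraries lay above both Scr_300 libraries, against 23.7% of all genes, but limma called 0 of this list at an adjusted p under 0.05. The spread between libraries is visible in single genes. Ifit3, an antiviral protein that binds foreign RNA complexes, was at 3.33 and 4.03 FPKM in Scr_300 and 14 and 39 FPKM in Scr_600 (adjusted p = 0.0659). Ifit1, its partner, which binds viral RNA caps, was at 2.16 and 1.64 FPKM in Scr_300 and 4.87 and 19.5 FPKM in Scr_600 (adjusted p = 0.131). Both Scr_600 libraries were above Scr_300, and the shallower one was several times above the deeper one. Rsad2, viperin, was at 1.21 and 1.43 FPKM in Scr_300 and 3.02 and 11.2 FPKM in Scr_600 (adjusted p = 0.141). Ifi27 was at 2.12 and 3.03 FPKM in Scr_300 and 5.1 and 29.8 FPKM in Scr_600 (adjusted p = 0.188), and Usp18, which removes ISG15 from proteins, at 0.12 and 0.359 FPKM in Scr_300 and 0.386 and 3.19 FPKM in Scr_600 (adjusted p = 0.288). For Usp18 the deeper Scr_600 library was close to the higher Scr_300 library.

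The ISRE core was searched as GAAA, any 2 bases and GAAA again, on both strands, in the 250 bases before the start sites. It was found in 2.98% of 32851 promoters, in 3.01% of the genes compared, in 11.4% of those at least 2-fold higher and in 3.73% of those at least 2-fold lower. Of the 26 interferon and MHC class I genes with a promoter sequence 12 (46.2%) held it, and of the 12 among them at least 2-fold higher 8 did. It was also found in members that were not 2-fold changed, Stat2 (log2 ratio 0.76), H2-T23 (0.78), Bst2 (0.54) and B2m (-0.15). The TonE core can share letters with the ISRE core. The promoters of Ifit1, Ifit3 and Rsad2 are shown because they carry the element in genes with high ratios, with the core in capitals, here on the strand opposite to the gene. They come from RefSeq (GRCm38.p6), at chr19:34640639-34640888 (plus strand), chr19:34583279-34583528 (plus strand) and chr12:26456453-26456702 (minus strand).
Ifit1: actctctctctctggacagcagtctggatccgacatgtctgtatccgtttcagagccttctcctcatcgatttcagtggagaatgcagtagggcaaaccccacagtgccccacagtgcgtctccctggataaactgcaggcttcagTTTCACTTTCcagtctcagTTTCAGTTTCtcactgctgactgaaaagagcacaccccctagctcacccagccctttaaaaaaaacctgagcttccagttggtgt
Ifit3: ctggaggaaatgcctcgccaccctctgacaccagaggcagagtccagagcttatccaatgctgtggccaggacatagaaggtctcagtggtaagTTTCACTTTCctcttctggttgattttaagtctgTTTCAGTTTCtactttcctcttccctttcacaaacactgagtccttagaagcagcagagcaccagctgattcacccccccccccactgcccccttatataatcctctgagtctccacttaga
Rsad2: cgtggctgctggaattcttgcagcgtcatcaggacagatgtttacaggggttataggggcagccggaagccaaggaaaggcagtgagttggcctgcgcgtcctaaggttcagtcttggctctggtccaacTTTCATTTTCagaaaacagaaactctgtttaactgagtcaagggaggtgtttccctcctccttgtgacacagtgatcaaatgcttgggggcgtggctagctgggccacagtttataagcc
Ifit1 and Ifit3 each held 2 matches and Rsad2 held 1.

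In pairs of single libraries, 1 from each group, the median change of the 27 interferon genes was 0.45 and 0.21 for the deeper Scr_600 library against the 2 Scr_300 libraries, and 1.63 and 1.80 for the shallower one. The size of the difference thus rests on the shallower Scr_600 library. Cxcl10, an interferon-induced chemokine outside that list, had the same pattern, at 2.47 and 1.64 FPKM in Scr_300 and 3.78 and 11.3 FPKM in Scr_600 (adjusted p = 0.163), while the MHC class I light chain B2m had group means of 189 and 171 FPKM. What set the libraries apart was not tested.

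**Figure D4:**
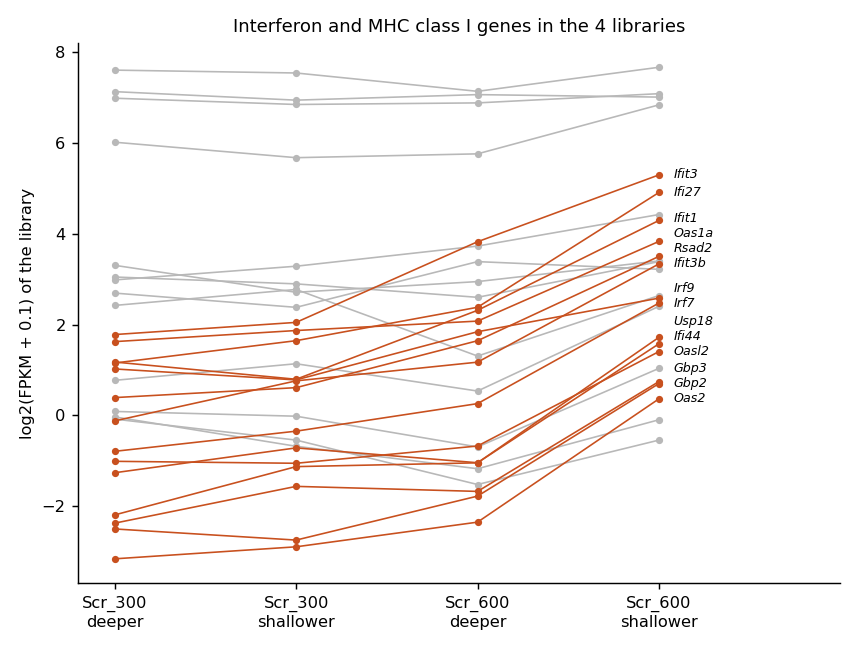
Log2(FPKM + 0.1) of the 27 interferon and MHC class I genes with values per library, with lines that join the values of 1 gene and carry no order. Orange genes had a group mean at least 2-fold higher in Scr_600, and all 14 of them are highest in the shallower Scr_600 library, such as Ifit3 at 39 FPKM against 14 FPKM in the deeper one.

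Genes of other stress programmes differed between libraries of the same group. The 23 hypoxia-inducible genes outside glycolysis had a median change of -0.54 and -0.58 for the deeper Scr_600 library against the 2 Scr_300 libraries and of 0.13 and -0.01 for the shallower one. Between group means 1 of them, Vegfa, was at least 2-fold higher in Scr_600 (log2 ratio 1.24), 4 were at least 2-fold lower and 0 were called. Over all genes 4.81% were at least 2-fold higher and 2.86% lower. Bnip3, a mitophagy receptor under HIF control, was at 27.2 and 39.9 FPKM in Scr_300 and 3.16 and 22.5 FPKM in Scr_600 (adjusted p = 0.263), and Ndrg1, a growth-linked HIF target, at 21.4 and 26.9 FPKM in Scr_300 and 3.51 and 14.5 FPKM in Scr_600 (adjusted p = 0.197), so both were lowest in the deeper Scr_600 library. Genes under ATF4, the factor of the amino acid response, were high in the shallower Scr_300 library. Trib3, a pseudokinase of that response, was at 5.79 and 51.6 FPKM in Scr_300 and 24.2 and 16.3 FPKM in Scr_600 (adjusted p = 0.927), and its log2 ratio of -0.50 became 1.79 without the shallower Scr_300 library. Asns, asparagine synthetase, was at 34.6 and 98 FPKM in Scr_300 and 48.2 and 40.7 FPKM in Scr_600 (adjusted p = 0.657). Of the 26 genes of ER stress and the ATF4 response, 0 were at least 2-fold higher, 1 lower and 0 called. Such counts are close to the shares of all genes, 4.81% at least 2-fold higher and 2.86% lower. Dusp6, a feedback phosphatase of ERK, was higher in both Scr_600 libraries but unequally so, at 11.8 and 8.49 FPKM in Scr_300 and 80.9 and 36.4 FPKM in Scr_600 (adjusted p = 0.0576). Of 9068 genes of 2 FPKM or more and separate reads, 126 differed at least 2-fold between the Scr_300 libraries, and of 8991 such genes 191 did so between the Scr_600 libraries. What set these libraries apart was not tested.

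**Figure D5:**
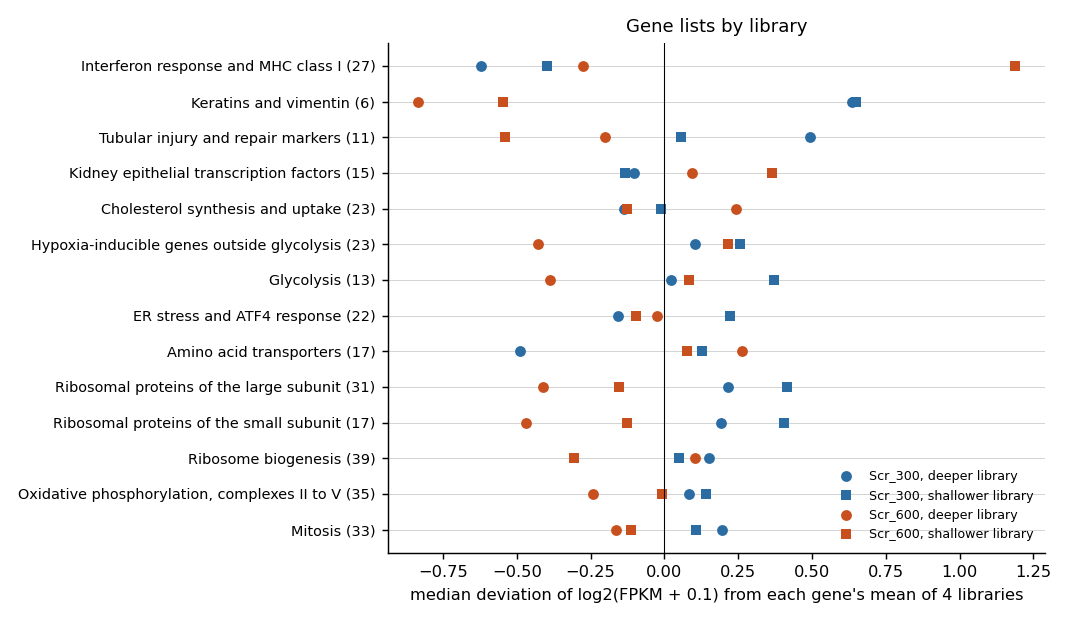
Median deviation of log2(FPKM + 0.1) in each library from each gene's mean of the 4 libraries, for 14 gene lists with the number of separated genes in brackets. Both orange marks (Scr_600) lie on one side of both blue marks (Scr_300) for keratins, kidney transcription factors, ribosomal proteins and mitosis genes. They also do so for injury markers, oxidative phosphorylation complexes II to V and interferon genes. The interferon genes stand at 1.19 in the shallower Scr_600 library and below 0 in the other 3.

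Gene classes differed in how often a 2-fold ratio was seen. It was seen in 5.17% of 10678 protein-coding genes, in 56.2% of 144 miRNA genes and in 31.3% of 131 snoRNA genes. Of 442 genes under 200 bases 42.5% were past 2-fold, 102 higher and 86 lower, against 6.22% of 12335 longer genes. A short gene has few reads per FPKM, and the library kit is not one for small RNAs, so these values were not read as changes of mature small RNAs. Among antisense genes 32 of 215 were at least 2-fold higher and 6 lower, and without strand information their reads cannot be told from those of the opposite gene. Listed at 0 in Scr_300 but at 0.5 FPKM or more in Scr_600 were 27 genes, of which the highest were Ranbp3l, Mir6960, AC154477.1, Mir6942 and Mir7089, and 16 genes were the reverse, led by Trgj4, Traj14, Mir6975, Mir5623 and mt-Tm. Adgrf1, an adhesion GPCR, was below that level, with 0 reads in Scr_300 and 0.266 and 0.377 FPKM in Scr_600. Its Scr_600 mean was 28.0-fold above its approximate 3-read bound of 0.0115 FPKM.

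Set beside the same comparison in Nfat5-KO cells, which shares no library with it, 259 of the 622 genes higher in scramble cells (41.6%) were also at least 2-fold higher there, or 31.9% of the 812 (6.25% of 12982) found in Nfat5-KO cells. Of the 370 lower genes 153 (41.4%) were at least 2-fold lower, or 28.7% of 534 (4.11%). The log2 ratio of Chdh was 2.97 in scramble and 2.51 in Nfat5-KO cells, and that of Cdh16 2.47 and 2.12. Sgk1 had 3.60 and 0.17, Hspa1a 3.10 and -0.22, Cldn4 1.17 and -0.59, and Krt5 -3.40 and 0.66. A difference between genotypes was not tested.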

How the data were processed

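RNA of mpkCCD scramble cells at both osmolalities was measured by RNA-seq. Per the labels and the study's methods, the authors aligned reads to mm10 with HISAT2, counted them per gene with HTSeq (versions and strand setting not given in the sources used here) and deposited 1 FPKM value per gene and group, the mean of its libraries. The table has 54839 rows, of which 2436 without a value, 311 duplicates and symbols on several rows were left out or merged, and 13 symbols had turned into dates. The members and gene lists were chosen with earlier results of these data known.

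FPKM times GENCODE M21 exon length was solved for whole reads of 2 libraries. The tolerance was 1.02 times the rounding of the printed digits plus 3 standard errors of the fitted worth of 1 read. A solution existed for 94.5% of genes in each group, against 1.99% and 2.38% when lengths were raised by 7 bases. Of 12929 genes, 152 had no length, 717 no solution and 142 several. The design had assumed no values per library, so limma (3.58.1, R 4.3.3) on log2(FPKM + 0.1), with the 4 scramble libraries and p adjusted over 11918 genes by Benjamini-Hochberg, was added after the data were seen, and so were the values without each library. The planned result, a 2-fold ratio of log2(FPKM + 0.1) at 0.5 FPKM or more, has no test. Named were the 25 highest and lowest ratios (with at least 5 FPKM in 1 group and 0.1 FPKM in both), the 5 highest genes listed at 0 in the other group, the 4 members of each list farthest from 0, all members of lists of at most 15 genes, and genes chosen by name. Of the 25 highest ratios, Hist1h4k, 2610203C20Rik, 2010300C02Rik and Gm25535 and a date-turned symbol are only counted. Rsad2, B2m, Aqp3 and Avpr2 were named after their values were seen. Promoters are those of RefSeq. Alternatives were other pseudocounts, filters and scalings. Intervals and floors of 3 reads cover counting error only.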

Additional observations from a re-analysis of the deposited data

How the results depend on the processing

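The 622 higher and 370 lower genes became 251 and 124 with a pseudocount of 1 FPKM, 1098 and 737 without a filter on low values, 352 and 201 with a mean of at least 1 FPKM, and 113 and 76 by limma. Their range over the fits that leave out a library was 440 to 590 higher and 361 to 488 lower, against 458 and 314 over the separated genes, and the 488 came without the shallower Scr_600 library. The median over all genes of the log2 ratio, -0.041, became -0.0337 with a pseudocount of 1 FPKM, -0.0052 without a filter, -0.0506 with a mean of at least 1 FPKM, -0.0258 with median-of-ratios scaling, 0.0884 with columns scaled to the same FPKM sum, and -0.055 to -0.047 without a library. The 412 genes past 2-fold alike in scramble and Nfat5-KO cells became 150, 634 and 243 under the first 3 of these settings and 261 to 324 without a library, against 291 over the separated genes. The filters change how many genes are tested, and the cause was not tested otherwise. With columns scaled to the same FPKM sum the counts were 756 and 288, and with median-of-ratios scaling 644 and 361. Of 279 named genes 29 changed sign without at least 1 library, and of those past 2-fold only Gapdh did: its log2 ratio of -2.62 became 0.17 without the shallower and -3.51 without the deeper Scr_300 library. Trib3 ran from -1.35 to 1.79, Asns from -1.14 to 0.36 and Aldh7a1 from -0.47 to 0.11. With 2 libraries a group, limma called few genes, and genes under 200 bases rest on few reads. No paired analysis was possible because the scramble replicate numbers are not shared between 300 and 600 mosmol/kg.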

Other observations

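Inmt and Aqp1 are near neighbours on chromosome 6 (mm10), and genes between and beside them were also higher in Scr_600. Inmt spans 55170626 to 55175043 on the minus strand and Aqp1 55336432 to 55348555 on the plus strand. Between them lies Mindy4, a deubiquitinase, at 0.785 and 0.641 FPKM in Scr_300 and 2.63 and 3.13 FPKM in Scr_600, which rose by a log2 change of 1.87 ± 0.23 (SE, limma adjusted p = 0.0348). Beyond Aqp1, Ghrhr, the receptor of growth hormone releasing hormone, was at 0.0718 and 0.00897 FPKM in Scr_300 and 0.680 and 0.416 FPKM in Scr_600 (limma adjusted p = 0.146), and the lincRNA 6430584L05Rik had 2 and 0 reads in Scr_300 and 32 and 35 reads in Scr_600. On the outer side of Inmt, the log2 ratio was 0.20 for Gars, a tRNA synthetase, and 0.10 for Ggct, an enzyme of glutathione turnover. Further out it was 0.58 for Nod1, which was under 0.5 FPKM in both groups, 0.41 for Znrf2 and 0.20 for Mturn. For Znrf2 both Scr_600 libraries lay above both Scr_300 libraries (limma adjusted p = 0.168). Beyond Ghrhr the log2 ratio was 0.11 for Adcyap1r1, which was near 0 FPKM in both groups. These genes were looked at after the values of Inmt and Aqp1 were seen, and nothing about their regulation was measured.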
